A study of Arabidopsis thaliana with 9 samples.

Results

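The transcripts of 10 Arabidopsis thaliana genes for small heat shock proteins were followed in freshly harvested seeds. The 10 loci are members of the HSP20 family chosen by locus: HSP17.4 (AT3G46230), AT1G53540, HSP18.2 (AT5G59720), HSP17.6II (AT5G12020), HSP17.6A (AT5G12030), AT1G54050, HSP15.7 (AT5G37670), HSP21 (AT4G27670), HSP22.0 (AT4G10250) and HSP23.6 (AT4G25200). They are 10 of 22555 genes listed in the deposited tables, and all 10 were among the 13679 genes that reached 1 FPKM (fragments per kilobase of gene length, scaled to the size of the library) in at least 3 libraries. The list follows the gene family, not measured values, but was drawn up with results of these data known.

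The data are 9 RNA-seq libraries of whole seeds that fall into 3 groups of 3. All 9 came from seeds that carried DOF6ioex, a construct from which estradiol switches on DOF6, a transcription factor gene of the DOF family, and all were imbibed for 8 h. The mock group was DOF6ioex in water, the DOF6ioex estradiol group was the same line in 50 µM estradiol, and the rgl2-13 DOF6ioex estradiol group carried in addition rgl2-13, an allele of the DELLA repressor gene RGL2, again in 50 µM estradiol. No library came from seeds without the construct and none from rgl2-13 DOF6ioex seeds in water, so an effect of estradiol itself cannot be told apart from that of DOF6, nor can the allele's effect without estradiol be given. The labels do not say whether replicates were separate harvests, so each p-value measures only the spread between these libraries.

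Small heat shock proteins are chaperones with an alpha-crystallin domain that bind unfolding proteins without using ATP and hold them in a state from which ATP-driven chaperones such as HSP70 and HSP101 can refold them. Plants encode them in the nucleus as classes that work in the cytosol (classes I, II and III, the last also in the nucleus) or are sent to the peroxisome, the plastid, the endoplasmic reticulum or the mitochondrion. Most are nearly silent in unstressed leaves and induced by heat, but some are also made as the seed matures and dries, a programme that in Arabidopsis depends on the seed regulator ABI3 and the heat shock factor HSFA9.

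The labels were checked first. DOF6 stood at 0.64, 0.86 and 0.41 FPKM in mock, at 33.7, 32.0 and 36.0 in DOF6ioex under estradiol and at 52.2, 21.4 and 27.5 in rgl2-13 DOF6ioex estradiol. RGL2 stood at 10.4, 13.1 and 8.86 FPKM in mock, at 8.02, 7.57 and 10.2 in DOF6ioex under estradiol and at 17.9, 16.1 and 18.8 where the labels give rgl2-13 DOF6ioex. It was therefore higher, not lower, where the labels give the mutant allele (log2 difference 0.97 ± 0.14 SE against DOF6ioex estradiol, limma adjusted p = 0.0184; the call was lost without DOF6ioex estradiol replicate 1 or 2 or replicate 3 of the labelled mutant, with adjusted p of 0.0928, 0.138 and 0.0839). What an insertion or other lesion leaves of the RGL2 transcript cannot be read from a value per gene, so these 3 are named throughout by their label, as the rgl2-13-labelled group. Replicate 1 of the rgl2-13-labelled group stood apart, at 37.3 on a first principal component on which the other 8 lay between -12.9 and 7.1. Seed identity transcripts (11 storage and late maturation genes) summed to between 78140 and 124789 FPKM in the 9 libraries and all 11 were detected, and their values by group are given with those of HSP17.4. Of the endosperm list only EPR1 was expressed (33815 to 67414 FPKM for the list), and the testa list summed to 0.36 to 0.61 FPKM.

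All 10 genes are annotated as protein-coding, HSP21 and HSP23.6 with 2 exons, AT1G54050 with 3 and the others with 1. HSP17.4, a cytosolic class I protein, had the highest level of the 10 genes in every library. It stood at 3978, 4453 and 4483 FPKM in the mock libraries, at 4376, 5034 and 4423 after estradiol in DOF6ioex and at 4166, 3649 and 4059 in the rgl2-13-labelled group. It ranked between 19 and 27 among all genes of a library, made up 80.4% to 84.9% of the summed FPKM of the 10 genes, and exceeded HSP23.6, the next in mean level, by 12.1 to 19.9 times. Of the 27 genes that the deposited tables assign to the HSP20 family, HSP17.4 made up 32.8% to 38.0% of the summed FPKM, or 68.5% to 76.7% without the entry AT5G11980, whose identity is uncertain and which is described with HSP17.6A. Together the 10 genes took 0.627% to 0.797% of a library's FPKM total. These are levels in whole seeds, where fewer cells of a type and less RNA per cell cannot be told apart.

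The levels of the 10 genes spanned more than 3 orders of magnitude, and FPKM is per length, so they can be set side by side. Their means over 9 libraries were 4291 FPKM for HSP17.4, 259 for HSP23.6, 243 for AT1G53540, 107 for AT1G54050, 91.2 for HSP17.6A, 75.2 for HSP17.6II, 63.8 for HSP22.0, 29.2 for HSP15.7, 8.05 for HSP21 and 2.36 for HSP18.2. The ranges of HSP23.6 and AT1G53540 overlapped, with HSP23.6 higher in 5 of 9 libraries. The ranges of AT1G54050 and HSP17.6A overlapped too, with AT1G54050 higher in 6 of 9. HSP17.6A was above HSP17.6II in 8 of 9 libraries, and HSP17.6II above HSP22.0 in 9 of 9, while their ranges over libraries overlapped. All other neighbours in this order had ranges that did not overlap. Within a gene the highest of 9 libraries exceeded the lowest by 1.38 times (HSP17.4) to 1.74 times (HSP18.2).

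**Figure D1:**
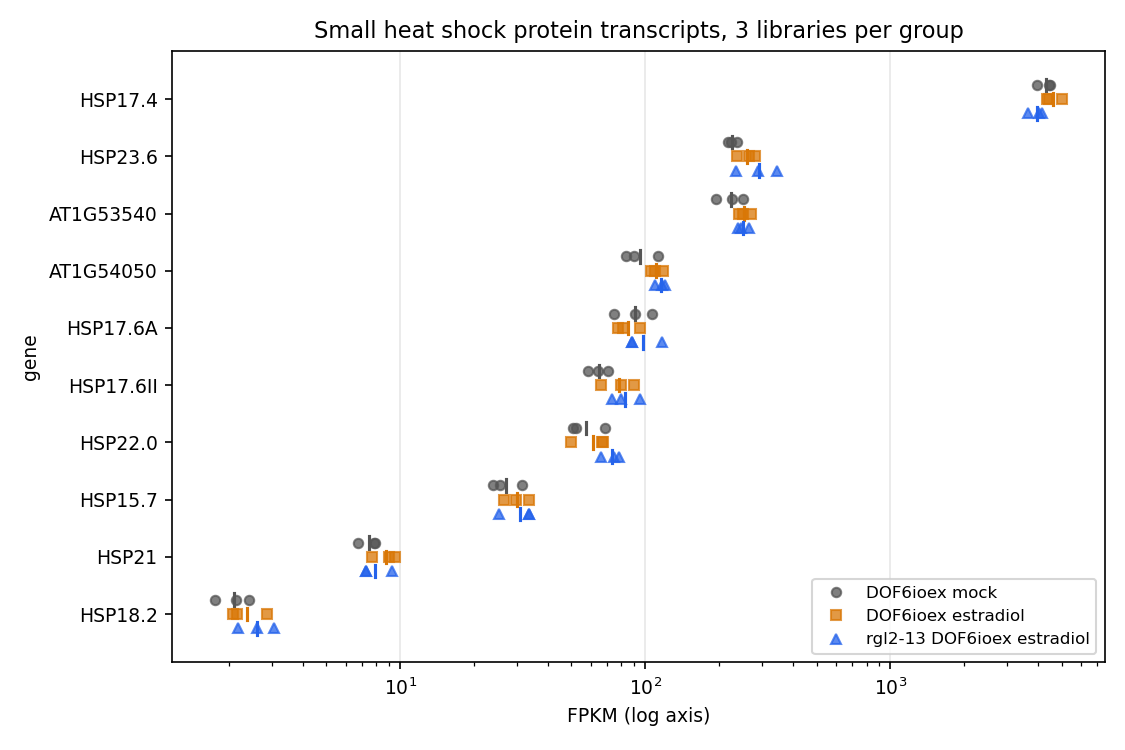
FPKM on a log axis for the 10 small heat shock protein genes, ordered by mean level. Each point is 1 library, coloured by group, and the short vertical lines are group means; HSP17.4 lies between 3649 and 5034 FPKM, apart from the other 9 genes, and the groups of a gene lie close together.

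The class I genes show how far closely related members differed in the seed. AT1G53540 stood at 195, 225 and 251 FPKM in mock, at 251, 271 and 240 in DOF6ioex under estradiol and at 246, 239 and 265 in the rgl2-13-labelled group. HSP18.2 stood at 2.15, 1.75 and 2.41 FPKM in the mock libraries, at 2.16, 2.86 and 2.09 after estradiol in DOF6ioex and at 3.05, 2.60 and 2.19 in the rgl2-13-labelled group, which is worth an estimated 44 to 79 fragments per library. The coding sequence of AT1G53540 is 85.6% identical to that of HSP17.4 and 79.7% to that of HSP18.2, yet it was 15.2 to 20.4 times lower than the former and 80.7 to 129 times higher than the latter. The longest run shared by the transcripts of HSP17.4 and AT1G53540 is 29 bases, and how reads within such runs were assigned was not tested.

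The windows of 250 bases before the annotated transcript start of these 3 class I genes are printed because their levels differ so far. They were read by locus from RefSeq TAIR10.1, whose use is described with the processing, and run 5′ to 3′ on the gene's strand. Capitals mark matches to GAANNTTC or TTCNNGAA, neighbouring units of the heat shock element that heat shock factors bind. The windows are chr3:16984842-16985091 on the minus strand for HSP17.4, chr1:19980049-19980298 on the plus strand for AT1G53540 and chr5:24062073-24062322 on the plus strand for HSP18.2. For HSP17.4 the annotated transcript starts at 16984841, 26 bases inside the gene's annotated span, and the window was taken from that start.
HSP17.4: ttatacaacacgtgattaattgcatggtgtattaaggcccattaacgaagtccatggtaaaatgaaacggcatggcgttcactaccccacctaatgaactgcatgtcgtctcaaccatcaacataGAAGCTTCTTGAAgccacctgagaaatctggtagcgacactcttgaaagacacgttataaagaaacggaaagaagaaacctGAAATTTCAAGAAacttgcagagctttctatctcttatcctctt
AT1G53540: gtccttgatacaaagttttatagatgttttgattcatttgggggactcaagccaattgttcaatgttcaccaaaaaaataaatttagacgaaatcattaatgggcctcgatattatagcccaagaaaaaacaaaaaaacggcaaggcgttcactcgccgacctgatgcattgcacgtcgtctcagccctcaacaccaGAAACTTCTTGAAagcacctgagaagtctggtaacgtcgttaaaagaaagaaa
HSP18.2: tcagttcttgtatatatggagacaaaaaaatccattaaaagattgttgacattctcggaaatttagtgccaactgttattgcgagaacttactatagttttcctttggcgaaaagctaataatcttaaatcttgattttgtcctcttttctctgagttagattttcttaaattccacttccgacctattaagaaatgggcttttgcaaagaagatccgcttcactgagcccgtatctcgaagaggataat

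The HSP17.4 window held 4 such matches, arranged as 2 runs of 3 units, and the last base of the nearest match lay 32 bases before the transcript start. That of AT1G53540 held 2 matches in 1 run of 3 units, the nearest 41 bases before the start, and the HSP18.2 window held none. For HSP18.2 the RefSeq transcript has 978 bases and the deposited length is 950, so the window rests on a start that may not be the authors'. Among the 10 genes, 5 had a match to GAANNTTC or TTCNNGAA on either strand. The share was 16.5% of 27443 windows of the same length before protein-coding genes' starts, these 10 included. HSP17.6A, HSP15.7 and HSP21, at means of 91.2, 29.2 and 8.05 FPKM, had 1 match each. Those without a match were HSP23.6 (259 FPKM), AT1G54050 (107), HSP17.6II (75.2), HSP22.0 (63.8) and HSP18.2 (2.36). Whether matches go with level was not tested. The run of 3 units, in which a GAANNTTC and a TTCNNGAA overlap by 3 bases, was in 2 of 10 against 0.394%. CATGCA, the core of the RY element of seed promoters, was in 3 of 10 against 8.36%, and ACGTG, the core of many abscisic acid response elements, in 4 of 10 against 23.3%. The HSP17.4 window held both cores at 2 places each, with overlapping matches on the 2 strands counted as 1 place. A match describes these letters alone, and a window without one says nothing of binding elsewhere.

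The HSP17.4 locus (chr3:16984118-16984867, minus strand, 1 exon) has overlapping neighbours. AT3G46220 on the plus strand shares 60 bases with it and was listed at 10.1 to 15.5 FPKM. A further plus-strand noncoding gene of RefSeq TAIR10.1, AT3G07365, covers 453 bases of it and was not used here. Whether counting used the strand is not given in the sources used here, so reads of HSP17.4 and of this antisense gene cannot be told apart.

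The cytosolic class II genes HSP17.6II and HSP17.6A stand next to each other on chromosome 5, at chr5:3882231-3883111 and chr5:3883957-3884838 of TAIR10.1, 845 bases apart on the minus strand, and their coding sequences are 86.8% identical. HSP17.6II stood at 64.5, 58.6 and 70.4 FPKM in mock, at 89.7, 79.7 and 66.0 in DOF6ioex under estradiol and at 95.4, 73.1 and 79.6 in the rgl2-13-labelled group. HSP17.6A, described in Arabidopsis as induced by heat and osmotic stress and in seed development, stood at 91.1, 107 and 74.7 FPKM in the mock libraries, at 95.3, 81.5 and 77.3 after estradiol in DOF6ioex and at 88.7, 88.1 and 118 in the rgl2-13-labelled group. The rgl2-13-labelled libraries all lay above the mock libraries for HSP17.6II, whereas for HSP17.6A the 3 groups overlapped. The ratio of HSP17.6II to HSP17.6A ran from 0.549 to 1.08 over the 9 libraries.

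The level of HSP17.6A is uncertain because of another entry. The entry AT5G11980, noticed after its values were seen, is annotated by the authors' tables both as COG8, a Golgi complex subunit, and as the HSP17.6A protein of the HSP20 family. It was listed with a length of 769 bases, where RefSeq TAIR10.1 gives transcripts of 2021 and 2153 bases for that locus. Its values were 5277, 5913 and 6567 FPKM in mock, 6313, 7286 and 6200 in DOF6ioex under estradiol and 6615, 5199 and 6319 in the rgl2-13-labelled group. That was 53.7 to 89.4 times the HSP17.6A value and 1.33 to 1.59 times the HSP17.4 value of the same library. The locus AT5G11980 lies 11656 bases from HSP17.6A, with 9930 bases and 3 genes between it and HSP17.6II. Across the 9 libraries the entry's log2 level correlated with HSP17.4 at r = 0.82 and with HSP17.6A at r = -0.22, a description over libraries that share depth and scaling. Which transcripts the entry's reads came from was not tested, and HSP17.6A is given here as listed. No group difference of the entry passed the test (log2 0.16 ± 0.12 SE for estradiol against mock, limma adjusted p = 0.814).

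**Figure D2:**
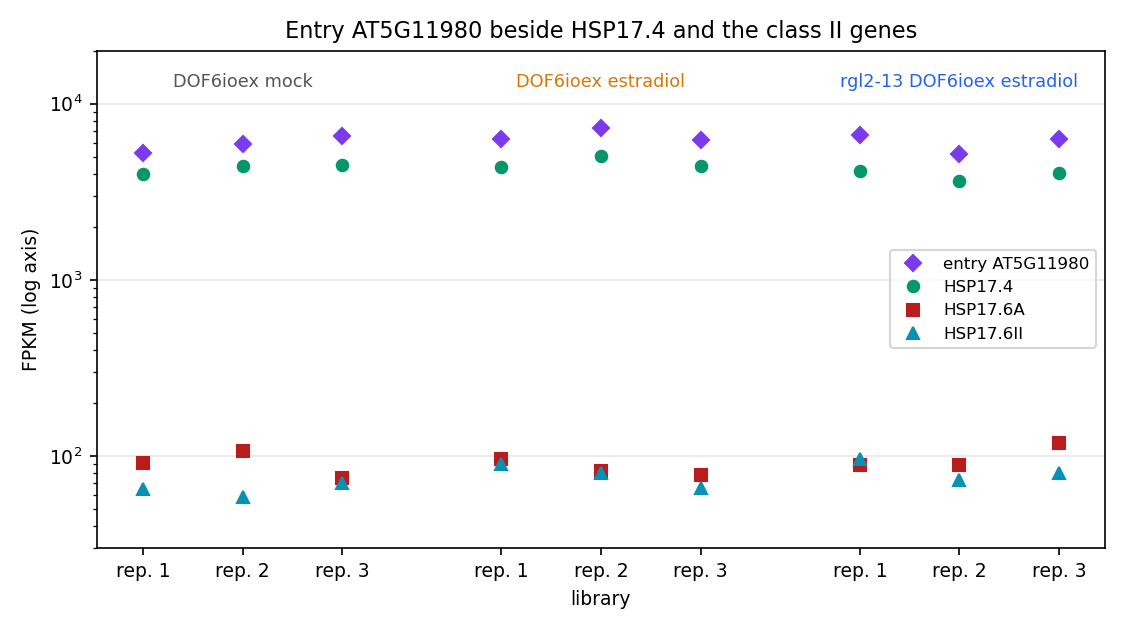
FPKM on a log axis in each of the 9 libraries for the entry AT5G11980, HSP17.4, HSP17.6A and HSP17.6II, with 1 point per gene and library. The entry lies between 5199 and 7286 FPKM, above HSP17.4 in 9 of 9 libraries, and both class II genes lie between 58.6 and 118 FPKM.

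AT1G54050 (chr1:20179357-20180566, minus strand), the class III protein, stood at 83.7, 89.8 and 113 FPKM in mock, at 118, 109 and 106 in DOF6ioex under estradiol and at 120, 110 and 117 in the rgl2-13-labelled group. Its 2 lowest libraries were mock replicates 1 and 2, while mock replicate 3 lay among the treated ones.

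Of the organelle proteins, mitochondrial HSP23.6 (chr4:12916926-12918110, plus strand) was the most abundant. It stood at 219, 224 and 237 FPKM in the mock libraries, at 266, 281 and 237 after estradiol in DOF6ioex and at 346, 235 and 289 in the rgl2-13-labelled group. HSP22.0, of the endoplasmic reticulum, stood at 52.1, 50.8 and 68.4 FPKM in mock, at 67.6, 66.9 and 49.8 in DOF6ioex under estradiol and at 74.4, 66.1 and 78.1 in the rgl2-13-labelled group. For both genes the groups overlapped in every comparison. HSP15.7, the peroxisomal member, stood at 23.9, 25.7 and 31.3 FPKM in the mock libraries, at 29.6, 33.7 and 26.6 after estradiol in DOF6ioex and at 33.7, 25.3 and 33.4 in the rgl2-13-labelled group. HSP21, the plastid member, which in Arabidopsis protects plastid transcription in heat, stood at 7.87, 6.75 and 7.83 FPKM in mock, at 9.55, 8.99 and 7.65 in DOF6ioex under estradiol and at 9.28, 7.29 and 7.23 in the rgl2-13-labelled group. HSP15.7 and HSP21 overlapped between groups as well. The 4 organelle genes summed to 318 ± 23.2 FPKM in mock, 361 ± 36.2 after estradiol in DOF6ioex and 402 ± 64.7 in the rgl2-13-labelled group (SD, n = 3).

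In estradiol against mock in DOF6ioex, the comparison that asks what induction of DOF6 does, 9 of the 10 genes had higher fitted values in estradiol, by log2 0.10 (HSP17.4 and HSP22.0) to 0.27 (HSP17.6II), and HSP17.6A a lower one (-0.09). No member passed the test. Differences are in log2(FPKM + 1) units, in which low genes appear to change less, and were tested with limma over all 13679 genes at a Benjamini-Hochberg adjusted p under 0.05, a rule that called 21 genes or 0.154%. The members' adjusted p ran from 0.745 to 0.919 and 0 of 10 had an unadjusted p under 0.05 (4.51% of all genes did with a higher value, 2.31% with a lower one). The median of the members was 0.17, beside 0.04 over all tested genes, of which 62.6% were fitted higher.

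HSP17.4 averaged 4611 ± 367 FPKM in estradiol and 4305 ± 283 in mock (SD, n = 3), a log2 difference of 0.10 ± 0.10 SE with a 95% interval of -0.11 to 0.31. HSP17.6II averaged 78.5 ± 11.9 and 64.5 ± 5.91, a difference of 0.27 with an interval of -0.01 to 0.55. AT1G54050 averaged 111 ± 6.45 and 95.5 ± 15.5, a difference of 0.23 with an interval of -0.01 to 0.47. A rise as large as the upper bound, or none, is thus within the spread of these libraries for either gene. No member had groups that did not overlap, against 14.9% of all tested genes.

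The same-numbered libraries gave opposite pictures. From mock to DOF6ioex estradiol, 10 of 10 genes were higher in pair 1 (median log2 ratio 0.30) and 9 of 10 in pair 2 (0.36), but only 1 of 10 in pair 3 (-0.08). Mock replicate 3 was the highest mock library for 8 of 10 genes, and DOF6ioex estradiol replicate 3 the lowest of its group for 9 of 10. The shares of all genes with these directions and extremes were not counted, so a shift shared by a whole library cannot be told apart. The replicate numbers are not shown to pair the libraries, so the pairs are only those the authors tabulated. In the authors' deposited table, whose unnamed test sets 1 library against 1 library, an FDR under 0.05 was given to 7 members as higher and 0 as lower in pair 1, to 9 and 1 in pair 2, and to 0 and 2 in pair 3. For HSP22.0 the authors' deposited table gives log2 ratios of 0.37, 0.40 and -0.46 with FDR of 8.13e-13, 3.21e-14 and 1.99e-19. Such values compare libraries, not conditions, and the direction turned between pairs. The share of all genes under that FDR in each pair was not counted, so these counts show nothing particular to the members. In the authors' deposited tables of genes past their own threshold, 228 genes for this comparison and 248 for the genotypes, 0 members appear.

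**Figure D3:**
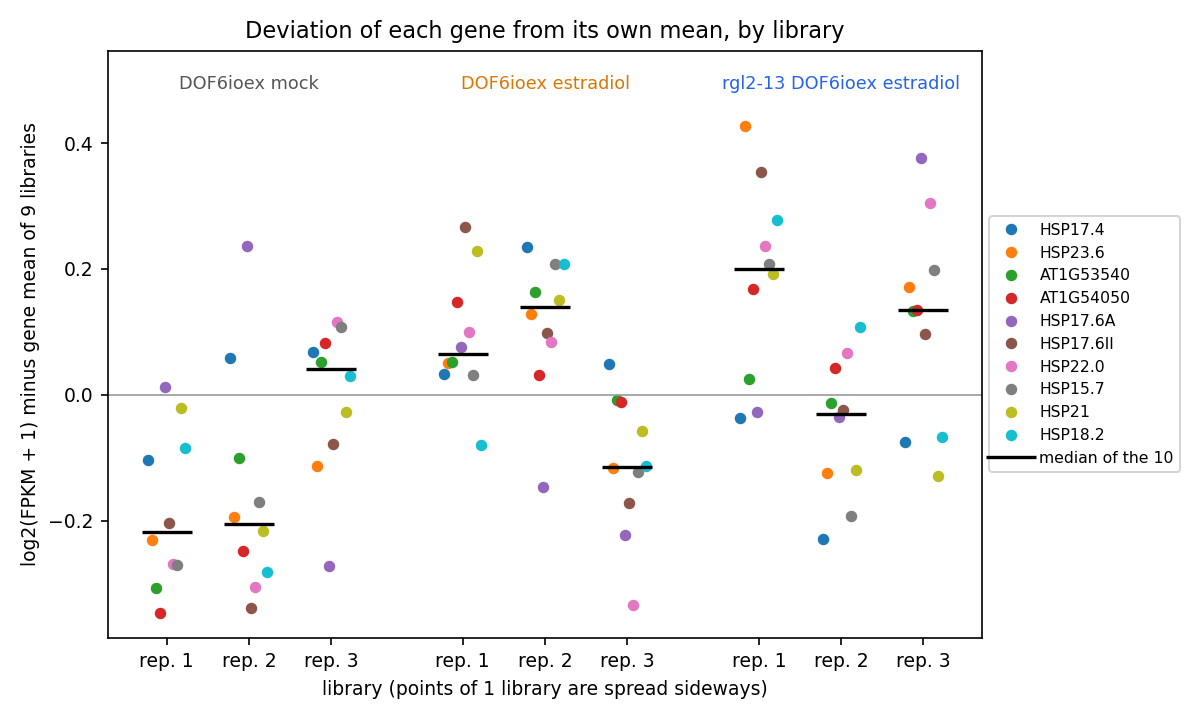
Deviation of each gene's log2(FPKM + 1) from its own mean over 9 libraries, with 1 point per gene and a black bar for the median of the 10 genes in each library. The median lies at -0.22 and -0.21 in mock replicates 1 and 2 but at 0.04 in replicate 3, and at -0.11 in DOF6ioex estradiol replicate 3, so libraries of a group differ as much as the groups do.

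The levels of most members followed each other across libraries. As a description over 9 libraries that share depth and scaling, the correlation of a gene's log2 level with the mean standardised level of the other 9 genes was 0.91 for HSP15.7, 0.88 for HSP17.6II and HSP23.6, 0.82 for HSP22.0, 0.81 for AT1G54050 and 0.76 for AT1G53540. It was 0.59 for HSP18.2 and HSP21. HSP17.4 (0.16) and HSP17.6A (-0.12) did not follow the rest. Among 8927 other genes with a mean of at least 5 FPKM, those whose log2 profile was most like the mean of the 10 were AT5G37340 (r = 0.96), AT3G09980 (0.94), AT1G10890 (0.93), AT2G02730 (0.93) and AT1G52560 (0.92). The last is itself a small heat shock protein gene. These 5 are the highest of 8927 correlations over 9 libraries, so high values follow in part from that choice.

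In the rgl2-13-labelled group against DOF6ioex, both in estradiol, HSP17.4 had lower values and no other member's groups separated. It averaged 3958 ± 273 FPKM against 4611 ± 367 (SD, n = 3), and each of its 3 libraries, at most 4166, lay below each DOF6ioex library, at least 4376. The log2 difference of -0.22 ± 0.10 SE had a 95% interval of -0.43 to -0.01 and did not pass the test (limma adjusted p = 0.315). Groups that separate downwards were found for 4.96% of all tested genes. With the outlying replicate 1 left out the difference was -0.26, and leaving out each library in turn gave -0.26 to -0.15.

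The seed identity genes also had lower values in the rgl2-13-labelled group. They summed to 124789, 95958 and 92348 FPKM in mock and to 98902, 92775 and 89904 in DOF6ioex under estradiol. In the rgl2-13-labelled group the sums were 78140, 84580 and 80557. Mock replicate 1 was thus well above the other mock libraries. For the genotypes in estradiol 11 of 11 were fitted lower, where 76.4% of all tested genes were fitted higher. Their median was -0.25, beside 0.11 for all genes. An unadjusted limma p under 0.05 was found for 4, as for 2.63% of all genes with a lower value, but 0 passed the limma test. Against mock 11 of 11 were fitted lower, where 80.1% of all tested genes were fitted higher. Their median was -0.38, beside 0.14 for all genes. An unadjusted limma p under 0.05 was found for 7, as for 2.43% of all genes with a lower value. Only 1 of the 11 passed the test there, which called 0.57% of all genes. It was CRU2, a seed storage protein of the cruciferin type, which lies outside the naming rule and is named after its values were seen. CRU2 stood at 4044, 3386 and 3112 FPKM in the mock libraries, at 3571, 3324 and 3328 after estradiol in DOF6ioex and at 2320, 2403 and 2498 in the rgl2-13-labelled group. It fell by 0.54 on the log2 scale against mock (SE 0.10, limma adjusted p = 0.0451), and its 3 libraries of that group lay below the other 6. Of all tested genes, 3.49% separated downwards against mock and 4.96% against DOF6ioex estradiol. The CRU2 call was lost with any 1 of 7 libraries left out (0.0542 to 0.174) and held without mock replicate 3 (0.0495) or replicate 2 of the rgl2-13-labelled group (0.0486). It was also lost without a filter, in a fit on 6 libraries and with the replicate number as a block (0.0925 to 0.152). The part of these genes' lower levels in the HSP17.4 values was not tested.

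The other 9 small heat shock protein genes differed by log2 -0.13 (HSP21) to 0.25 (HSP22.0) between the genotypes in estradiol. Across the 10, 7 were fitted higher and 3 lower, 0 passed the limma test, under which 0.161% of all genes were called, and 1, HSP17.4, had an unadjusted p under 0.05, as did 2.63% of all genes with a lower and 12.6% with a higher value. The members' median was 0.07, beside 0.11 over all tested genes, of which 76.4% were fitted higher. Rescaling the libraries so that a typical gene did not differ (median of ratios) took the median of all genes from 0.11 to 0.01 and that of the members to -0.04. HSP15.7, HSP17.6II and AT1G54050 then changed sign, and HSP17.4 stood at -0.33 (adjusted p = 0.254). Without the replicate 1 that stood apart the members' median was 0.00. HSP22.0 averaged 72.9 ± 6.17 FPKM against 61.4 ± 10.1, with an interval of -0.05 to 0.56 for its difference.

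**Figure D4:**
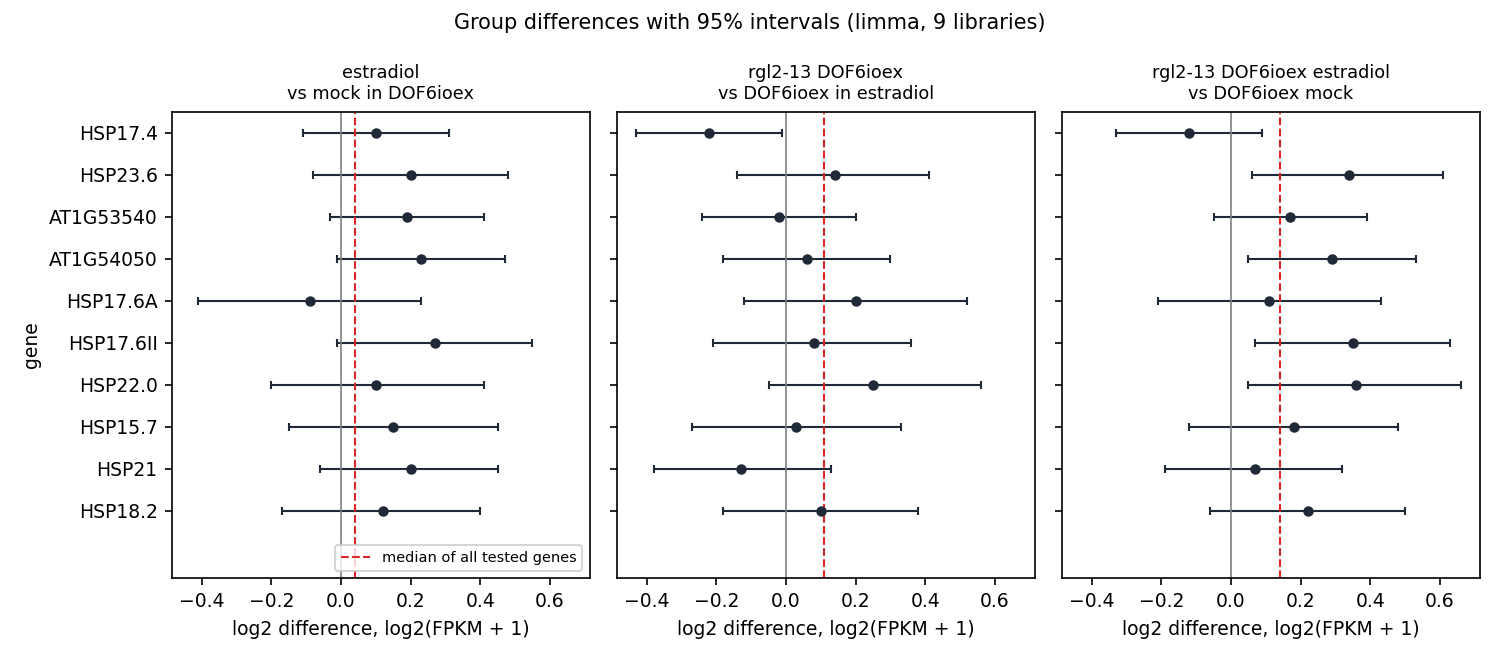
Log2 differences of the 10 genes with 95% intervals from limma, on the log2(FPKM + 1) scale, in the 3 comparisons. The dashed line is the median of all tested genes (0.04, 0.11 and 0.14 from left to right); every interval includes 0 in the left panel, and in the middle panel that of HSP17.4 ends at -0.01.

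Against mock, the rgl2-13-labelled libraries, which were in estradiol, differ in genotype and in treatment at once. Here 9 of 10 genes had higher fitted values and HSP17.4 a lower one (-0.12), and 0 of 10 passed the limma test, which called 78 genes or 0.57%. An unadjusted p under 0.05 was found for 4 members, all higher, where 22.8% of all genes had one with a higher and 2.43% with a lower value. These were HSP22.0 (log2 0.36), HSP17.6II (0.35), HSP23.6 (0.34) and AT1G54050 (0.29), with adjusted p from 0.143 to 0.159. HSP17.6II averaged 82.7 ± 11.4 FPKM against 64.5 ± 5.91 (SD, n = 3), with an interval of 0.07 to 0.63 for the difference, and was the only member whose groups did not overlap. Separation upwards was found for 27.3% of all tested genes. The members' median was 0.20, beside 0.14 for all genes, of which 80.1% were fitted higher. Median-of-ratios scaling, which took the median of all genes to 0.00, left 0.07 for the members. It turned HSP17.6A and HSP21 to lower values. These 3 comparisons share libraries and are not independent.

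Of 13 other small heat shock protein genes, 7 were expressed highly enough to test and 0 were called in any comparison. For estradiol against mock 6 of the 7 were fitted higher (62.6% of all tested genes were), for the genotypes 6 (76.4%) and against mock with both differences 7 (80.1%). Their medians were 0.15, 0.04 and 0.29, beside 0.04, 0.11 and 0.14 for all genes. An unadjusted p under 0.05 was found for 2, 1 and 3 of the 7, all with a higher value, as for 4.51%, 12.6% and 22.8% of all genes. AT2G29500, a cytosolic class I gene and the most abundant of them, stood at 198, 210 and 259 FPKM in the mock libraries, at 247, 295 and 264 after estradiol in DOF6ioex and at 327, 233 and 261 in the rgl2-13-labelled group. AT1G52560 stood at 143, 141 and 169 FPKM in mock, at 184, 217 and 179 in DOF6ioex under estradiol and at 243, 164 and 196 in the rgl2-13-labelled group. Mock replicates 1 and 2 were the lowest libraries of both genes. By the orthology column of the deposited tables the HSP20 family holds 27 genes, the 10 members and 17 others, of which 11 were testable. AT5G11980 and AT3G46220, neighbours of members, are 2 of those 17.

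Larger chaperones and their partners, among them the ATP-driven HSP70, HSP90 and HSP101 families that refold clients of small heat shock proteins, were listed as 19 genes, and 0 of 19 were called in any comparison. For estradiol against mock 15 of 19 were fitted higher, with a median of 0.18 beside 0.04 for all genes, and an unadjusted p under 0.05 was found for 8 with a higher value (4.51% of all genes) and 1 with a lower one (2.31%). For the genotypes 16 of 19 were fitted higher and 3 had such a p with a higher value (12.6%), and the median of 0.12 was close to the 0.11 of all genes. For the third comparison 18 of 19 were fitted higher, with a median of 0.30 beside 0.14, and 13 had such a p with a higher value (22.8%) and 1 with a lower one (2.43%). The lower one was BIP3, an HSP70 of the endoplasmic reticulum named after its values were seen, both here (-0.36, limma adjusted p = 0.166) and for estradiol against mock (-0.53, 0.433). HSP70 (AT3G12580), a heat-inducible cytosolic member of its family, stood at 773, 720 and 850 FPKM in the mock libraries, at 947, 955 and 916 after estradiol in DOF6ioex and at 1051, 903 and 879 in the rgl2-13-labelled group. Both estradiol groups lay above mock, a separation found for 10.6% of all tested genes in DOF6ioex estradiol and 27.3% in the rgl2-13-labelled group. The HSP70 difference for estradiol against mock was log2 0.27 ± 0.10 SE and did not pass the test (limma adjusted p = 0.645). HSP90.1, the heat-inducible cytosolic HSP90, differed by 0.36 ± 0.14 SE (adjusted p = 0.689). In replicate 1 of the rgl2-13-labelled group the 19 genes summed to 4805 FPKM, against 3550 and 3701 in the other 2 of its group. There 5 of the 10 members reached their highest value of 9 libraries. This library stood apart over all tested genes, and the share of all genes that were highest in it was not counted. Without that library the members' median against mock was 0.18.

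Heat shock factors, which bind the promoter element shown above, and seed regulators were listed as 24 genes, of which 21 were testable. In the 3 comparisons 16, 18 and 18 of 21 were fitted higher (62.6%, 76.4% and 80.1% of all tested genes were). Their medians were 0.11, 0.09 and 0.19, beside 0.04, 0.11 and 0.14 for all genes. An unadjusted limma p under 0.05 was found for 1, 2 and 7 of the 21, all with a higher value, as for 4.51%, 12.6% and 22.8% of all genes. HSFB2A, a class B heat shock factor, was the only one of the 21 called, and only for the rgl2-13-labelled group against mock. There 0.57% of all genes were called, and HSFB2A rose by log2 0.47 ± 0.09 SE (limma adjusted p = 0.048). That call was lost (adjusted p 0.0542 to 0.206) with any 1 of 8 libraries left out, held without replicate 2 of the rgl2-13-labelled group (0.0437), and was lost under either scaling, without a filter, in a fit on 6 libraries and with the replicate number as a block (0.0824 to 0.122). It stood at 6.74, 6.69 and 7.16 FPKM in mock, at 8.62, 7.78 and 7.30 in DOF6ioex under estradiol and at 10.7, 9.38 and 9.70 in the rgl2-13-labelled group. HSFA9, the seed heat shock factor, outside the naming rule and chosen after its values were seen, stood at 66.4, 86.6 and 104 FPKM in the mock libraries, at 90.96, 97.5 and 96.8 after estradiol in DOF6ioex and at 56.8, 89.0 and 92.1 in the rgl2-13-labelled group. Its groups overlapped, and its lowest library was the replicate 1 that stood apart.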

How the data were processed

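The submitters aligned the reads with HISAT, according to their processing notes. The sources used here give no aligner version, genome build, strandedness or quantification tool. Deposited values are FPKM per gene and library, in 6 tables that each set 1 library against another. Per the file headers 1 table calls them RPKM, and its values for a library found in a second table were identical, so RPKM and FPKM were treated as 1 unit. The authors added a log2 ratio, a gene length and an FDR, that is a p-value adjusted by the authors after a test they do not name. In 2 tables the authors' FDR runs just above 1 and was read as a score. The tables were joined to 22555 genes by 9 libraries, and a missing gene was set to 0.01, the lowest value. In 2 tables of genes past the authors' threshold, 4 columns of values headed by group alone were not used. Depth is unknown from FPKM. Steps in low values put it at an estimated 25900000 to 27900000 fragments per library, with 75.7% to 81.5% of those values near whole fragments. With 50 bases taken off each gene length it was 28900000 to 31800000, with 82.0% to 90.2% near whole fragments. Evenly spread values would give 30%. The fragment numbers of single genes rest on the first estimate.

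The 3 comparisons were tested with limma 3.58.1 (R 4.3.3, mean-variance trend) on log2(FPKM + 1), with 1 mean per group and all 9 libraries in the model, for 13679 genes that reached 1 FPKM in 3 libraries. Intervals are limma's 95% t intervals, and the fit was tested on simulated data. Members and lists were chosen with earlier results of these data known. The text names all members, of the lists of small heat shock proteins, chaperones and regulators up to 4 called genes or else the 2 of highest mean, DOF6, RGL2 and the 5 most alike genes, and marks others. Positions and sequences were read by locus from RefSeq TAIR10.1, since the files name no build. Of 12359 genes with 1 transcript there, 91.7% had exactly the deposited length. The alternatives tried changed the pseudocount (0.1), the filter, the scaling (median of ratios, upper quartile), the libraries fitted (6 or each left out), the trend, or added the replicate number as a block.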

Additional observations from a re-analysis of the deposited data

How the results depend on the processing

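No member was called by limma in any of the 3 comparisons under any alternative run, including each of 9 libraries left out. Counts over all genes moved more. For estradiol against mock, 21 genes became 4 without a filter, 57 with either median-of-ratios or upper quartile scaling and 100 in the fit on 6 libraries, and leaving out a library gave 5 to 89. For the genotypes in estradiol, 22 became 4 without a filter and 7 on 6 libraries, and 8 to 27 with a library left out. For the third comparison, 78 (62 higher, 16 lower) became 5 without a filter, 136 (66 higher, 70 lower) with median-of-ratios scaling, 130 (68 and 62) with upper quartile scaling and 15 on 6 libraries, and 8 to 225 with a library left out. The cause was not tested.

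Same-numbered libraries were not paired by the labels, and their deviations correlated between -0.41 and 0.25; the replicate number as a block gave 12, 11 and 12 called genes in the 3 comparisons and no called member.

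The members' median was 0.10 to 0.24 for estradiol against mock with a library left out, -0.01 to 0.13 for the genotypes and 0.16 to 0.29 for the third comparison, where either scaling moved it from 0.20 to 0.07. Signs turned for differences near 0. Outside the members, the alternatives for HSFB2A, RGL2, CRU2, DOF6, HSP70, HSP90.1 and AT5G11980 were added after seeing the data. The RGL2 call was also lost without a filter (adjusted p = 0.188), on 6 libraries (0.0519) and with the block (0.115). For the genotypes, scaling by median of ratios and by upper quartile turned HSP15.7 to -0.08 and -0.07, HSP17.6II to -0.03 under both, and AT1G54050 to -0.05 under both. Against mock, the same scalings turned HSP17.6A to -0.05 and -0.04 and HSP21 to -0.07 and -0.06. With a library left out, HSP17.6A ran from -0.22 to 0.03 for estradiol against mock. For the genotypes AT1G53540 ran from -0.06 to 0.03, HSP15.7 from -0.05 to 0.16 and HSP17.6II from -0.04 to 0.18. Against mock HSP17.6A ran from -0.02 to 0.23 and HSP21 from -0.04 to 0.12. Depth limits HSP18.2 and HSP21 most, at an estimated 44 to 79 and 175 to 247 fragments.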
